A study of Dichomitus squalens with 16 samples.

Results

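Gene expression of the white-rot fungus Dichomitus squalens was compared between cultures on wheat bran and cultures on cotton seed hulls at day 16. The comparison was defined by the substrate and sampling day in the labels and rests on 4 of the 16 libraries of the series, 2 for each substrate. The series grew strain LYAD-421 SS1 on 4 plant materials (spruce sawdust, aspen sawdust, powdered wheat bran and powdered cotton seed hulls) and sampled each at day 9 and day 16. All cultures were started from mycelium pregrown for 4 days at 28 °C and held 1 g of substrate in 100 ml of a low-nitrogen asparagine-succinate medium containing 6.8 mM glycerol, so neither group lived on the plant material alone. RNA was taken from mycelium together with the substrate it had colonised. The labels give replicate numbers but do not say whether replicates came from separate flasks, so p-values may measure technical spread only.

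White-rot fungi secrete hydrolases and oxidoreductases that open cellulose, hemicelluloses, pectin and lignin, and they take up the released sugars, peptides and ions through membrane transporters. Wheat bran is the milled outer layer of the grain, with arabinoxylan, residual starch, protein and phytate. Cotton seed hulls are a tough seed coat of cellulose, xylan and lignin that carries short cellulose fibres. No gene reports on the substrate itself, so the labels could not be checked against a marker.

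Libraries averaged 8633849 uniquely assigned reads on wheat bran against 8315964 on cotton seed hulls, the deepest of the 4 holding 1.07 times the reads of the shallowest, and 11276 genes had a read in at least 1 of them. Log2 values of RPKM (reads scaled to gene length and library size) correlated between replicates at r = 0.994 on wheat bran against 0.993 on cotton seed hulls, across genes, which are not independent replicates. The cotton seed hull replicates differed more than counting error, with a chi-square of 7.36 per degree of freedom against 1.68 for wheat bran. Those replicates also differed in 6 highly abundant locus tags between DICSQDRAFT_73518 and DICSQDRAFT_73601, which took 2.82% of the reads of cotton seed hull replicate 1 and 1.36% of replicate 2, against 1.22% and 1.19% on wheat bran. Levels below are deposited RPKM values divided by the library's TMM factor (a scaling that centres most genes), called scaled RPKM, given for replicates 1 and 2 in that order. Differences are log2 of wheat bran over cotton seed hulls ± SE from edgeR's quasi-likelihood test with Benjamini-Hochberg adjustment over 10584 genes, called at an adjusted p below 0.05.

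The most-read genes took a larger share of the reads on cotton seed hulls. The 100 genes with most reads held 39.9% and 39.2% of all reads there, against 31.5% and 31.3% on wheat bran. Of the 100 genes with most reads on cotton seed hulls, a choice that favours genes high there, 85 were called lower on wheat bran and 2 higher. Of the 100 genes with most reads on wheat bran, chosen the other way, 70 were also called lower on wheat bran and 10 higher. The TMM factors were 0.702 and 0.721 on cotton seed hulls and 0.983 and 0.990 on wheat bran.

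With this scaling 3320 genes differed, 31.4% of those tested. Of these, 1381 were higher on wheat bran (13.0%) and 1939 lower (18.3%). A difference of at least 2-fold was called for 847 genes (8.0%), 428 higher (4.04%) and 419 lower (3.96%), and at least 4-fold for 80 in each direction. Every called gene had scaled RPKM values that did not overlap between the groups, which was true of 70.3% of all genes tested, and of 86.4% in deposited RPKM. In these bulk cultures, fewer hyphae of a kind and less RNA per hypha cannot be told apart. The split depended on the scaling. When libraries were scaled by total reads only (library size alone), the median gene stood 0.48 higher on wheat bran on the log2 scale, with 5848 genes higher and 625 lower. List counts given below for total reads alone are to be read beside these counts of all 10584 genes. With upper quartile scaling the counts were 2053 and 1407. Leaving out a day 16 library lowered the count of higher genes to 768 without cotton seed hull replicate 1, 850 without cotton seed hull replicate 2, 849 without wheat bran replicate 1 and 838 without wheat bran replicate 2. The total fell to 2108 without cotton seed hull replicate 1 and 2148 without wheat bran replicate 2.

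**Figure D1:**
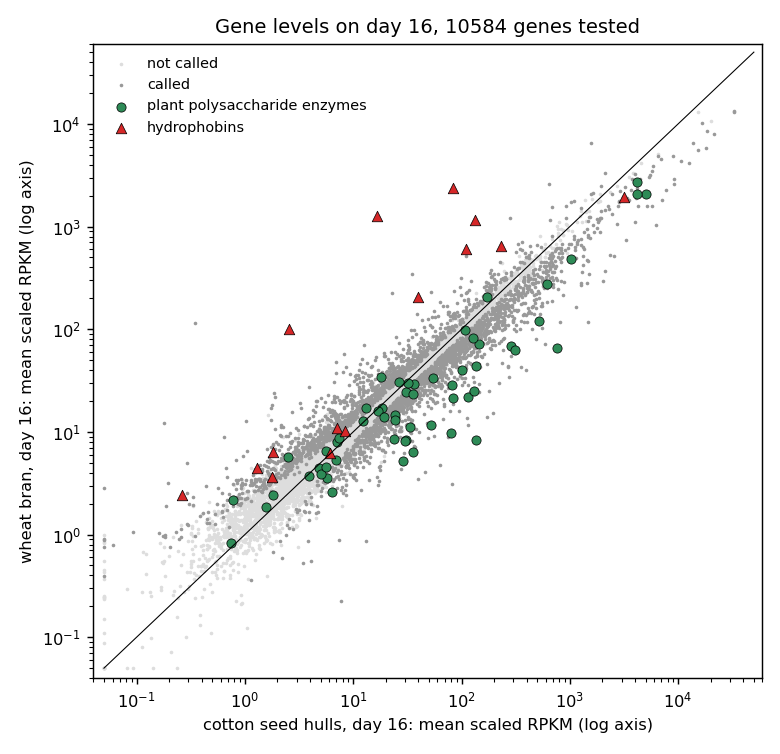
Mean scaled RPKM per gene on cotton seed hulls (x axis) against wheat bran (y axis) at day 16, both on log scales, with means below 0.05 drawn at 0.05. Light grey points are genes not called, dark grey points are called genes, green circles are plant polysaccharide enzymes, red triangles are hydrophobins and the line marks equal levels. Most of the abundant called genes and green circles lie below the line, and most hydrophobins lie above it.

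Enzymes that degrade plant polysaccharides were mostly lower on wheat bran. Of 57 such genes tested, 34 were lower and 3 higher, with a median log2 difference of −0.69 against 0.01 for all genes. Scaled by total reads only, 26 were lower and 13 higher, and their median of −0.22 stood against 0.48 for all genes. In that scaling the lower and higher counts were 4 and 0 for cellobiohydrolases, 7 and 2 for endoglucanases, 2 and 0 for mannanases and 4 and 1 for pectinases. The summed level of the 57 genes was 9253 and 8794 scaled RPKM on wheat bran and 18834 and 18981 on cotton seed hulls. Most of it came from the barwin-like endoglucanases DICSQDRAFT_49028 and DICSQDRAFT_47249 and from the arabinanase/levansucrase/invertase DICSQDRAFT_156340, all given below.

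By summed level the endoglucanase list differed most, at 5215 and 4929 scaled RPKM on wheat bran and 9625 and 9945 on cotton seed hulls. The xylan side-chain list followed, at 2199 and 2117 against 4385 and 4391. Nearly all of that sum came from a single gene, the arabinanase/levansucrase/invertase DICSQDRAFT_156340, whose levels are given below. The median difference of the list was 0.17, so its summed level does not describe most of its members. The cellobiohydrolase list was a small part of the sum, at 206 and 197 against 731 and 701. Of 6 genes in the cellobiohydrolase list, which release cellobiose from cellulose chain ends, 5 were lower and none higher, with a median of −1.61. The list also holds 2 oligoxyloglucan reducing-end-specific genes. The cellobiohydrolase II gene DICSQDRAFT_152125 stood at 124 and 116 scaled RPKM on wheat bran and 533 and 511 on cotton seed hulls, a difference of −2.12 ± 0.16 (adjusted p = 1.57e-07). Both cotton seed hull libraries were thus far above both wheat bran libraries. The cellobiohydrolase I gene DICSQDRAFT_96488 had 41.0 and 39.5 against 101 and 99.0, a difference of −1.31 ± 0.15. The rarer cellobiohydrolase I gene DICSQDRAFT_131122 had 4.95 and 5.41 against 29.2 and 28.6, a difference of −2.48 ± 0.37 (adjusted p = 0.000857). The groups were apart in each of these genes, as they were in every called gene.

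Endoglucanases, which cut inside the cellulose chain, behaved alike: 8 of 11 were lower and none higher, with a median of −1.47. The steepest difference was in DICSQDRAFT_147873, described as an endo-beta-1,4-glucanase but matched to a xylanase in KEGG, with 9.49 and 7.06 on wheat bran and 148 and 122 on cotton seed hulls (−4.02 ± 0.17, adjusted p = 4.79e-11). The family 12 gene DICSQDRAFT_125489 had 10.9 and 8.81 against 83.2 and 77.3, a difference of −3.02 ± 0.23. The endoglucanase DICSQDRAFT_65561, chosen after its values were seen, had 21.1 and 22.4 against 115 and 114 (−2.40 ± 0.12). By level the group was dominated by barwin-like endoglucanases, named for a fold they share with expansins, whose relative differences were smaller. DICSQDRAFT_49028 had 2134 and 2049 against 4974 and 5083 (−1.27 ± 0.13), and DICSQDRAFT_47249 had 2800 and 2599 against 4038 and 4267 (−0.62 ± 0.13), a call lost with library size alone (−0.15).

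Lytic polysaccharide monooxygenases, copper enzymes that break crystalline cellulose by oxidation, were few: 2 of 3 were lower. The family 61 gene DICSQDRAFT_108020 had 10.5 and 11.8 on wheat bran and 35.5 and 30.8 on cotton seed hulls (−1.57 ± 0.15, adjusted p = 6.04e-07). The beta-glucosidases, which split cellobiose to glucose, did not share a direction. Of 6 genes 1 was higher and 2 lower, with a median of −0.12 that turned positive with library size alone (2 higher, 0 lower). DICSQDRAFT_176390 was higher on wheat bran at 32.8 and 35.3 against 18.5 and 17.7, a difference of 0.91 ± 0.12 (adjusted p = 2.65e-05). DICSQDRAFT_149400 was lower at 22.4 and 24.9 against 34.6 and 37.0 (−0.60 ± 0.13), and this call was lost with library size alone (−0.13).

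Among hemicellulases, the 2 mannanase-list genes were both lower and xylan side-chain enzymes were mixed. The CEL4a mannanase DICSQDRAFT_132822, which cuts the mannan backbone, had 72.8 and 65.5 on wheat bran and 290 and 277 on cotton seed hulls (−2.04 ± 0.11). The alpha-galactosidase DICSQDRAFT_75292, which removes galactose side groups, had 63.8 and 61.9 against 317 and 310 (−2.32 ± 0.08, adjusted p = 1.23e-11). A pair of glycoside hydrolases with no family named in the annotation behaved likewise. DICSQDRAFT_79806, a KEGG match to alpha-galactosidase, had 128 and 108 against 1456 and 1462 (−3.63 ± 0.15), and DICSQDRAFT_46134, a match to beta-mannosidase, had 26.3 and 23.9 against 181 and 180 (−2.85 ± 0.16). Of these, DICSQDRAFT_79806 was the most abundant on either substrate.

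The endo-xylanase C gene DICSQDRAFT_133555, which cleaves the xylan backbone, was at 46.2 and 41.3 on wheat bran and 137 and 132 on cotton seed hulls (−1.62 ± 0.10, adjusted p = 3.90e-09). Of 9 xylan side-chain genes, 4 were lower and 2 higher, with a median of 0.17, and the counts were 3 and 4 with library size alone. The family 43 gene DICSQDRAFT_181663 had 25.2 and 25.2 against 138 and 124 (−2.38 ± 0.09). The family 43 gene DICSQDRAFT_57570 went the other way at a low level, with 2.04 and 2.29 against 0.900 and 0.665 (1.46 ± 0.38, adjusted p = 0.0128). That call was lost without cotton seed hull replicate 2 (adjusted p = 0.129) or wheat bran replicate 2 (adjusted p = 0.0694). The most abundant gene of the list, the arabinanase/levansucrase/invertase DICSQDRAFT_156340, had 2105 and 2024 on wheat bran and 4135 and 4160 on cotton seed hulls (−1.01 ± 0.12).

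Pectinases were lower in 5 of 8 cases and higher in none, with a median of −0.80. The endo-polygalacturonase PG1 (DICSQDRAFT_154984), which cuts the pectin backbone, had 69.4 and 62.9 on wheat bran and 778 and 730 on cotton seed hulls, a difference of −3.51 ± 0.24 (adjusted p = 1.32e-06). The pectin lyase-like gene DICSQDRAFT_61616, a KEGG match to pectinesterase, had 20.7 and 22.2 against 82.2 and 85.7 (−1.97 ± 0.13). A family 88 gene, DICSQDRAFT_135625, in a family that acts on unsaturated oligosaccharides left by lyases, had 28.6 and 28.6 against 78.2 and 84.4 (−1.51 ± 0.12). In all 3 genes the cotton seed hull libraries were the high ones, and no called gene had overlapping groups.

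Starch enzymes were lower on wheat bran in 5 of 10 cases and higher in none, with a median of −0.22. With library size alone the list read 4 higher and 3 lower, with a median of 0.26, below the 0.48 of all genes. The 3 most abundant members were lower. Glucoamylase DICSQDRAFT_134993, which frees glucose from chain ends, had 284 and 263 on wheat bran and 623 and 606 on cotton seed hulls (−1.17 ± 0.13). The alpha-amylase DICSQDRAFT_84199, which cuts within the chain, had 494 and 477 against 1043 and 987 (−1.06 ± 0.09), and the alpha-glucosidase DICSQDRAFT_110931 had 73.4 and 69.7 against 146 and 144 (−1.02 ± 0.20). Their replicates differed by far less than the groups.

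**Figure D2:**
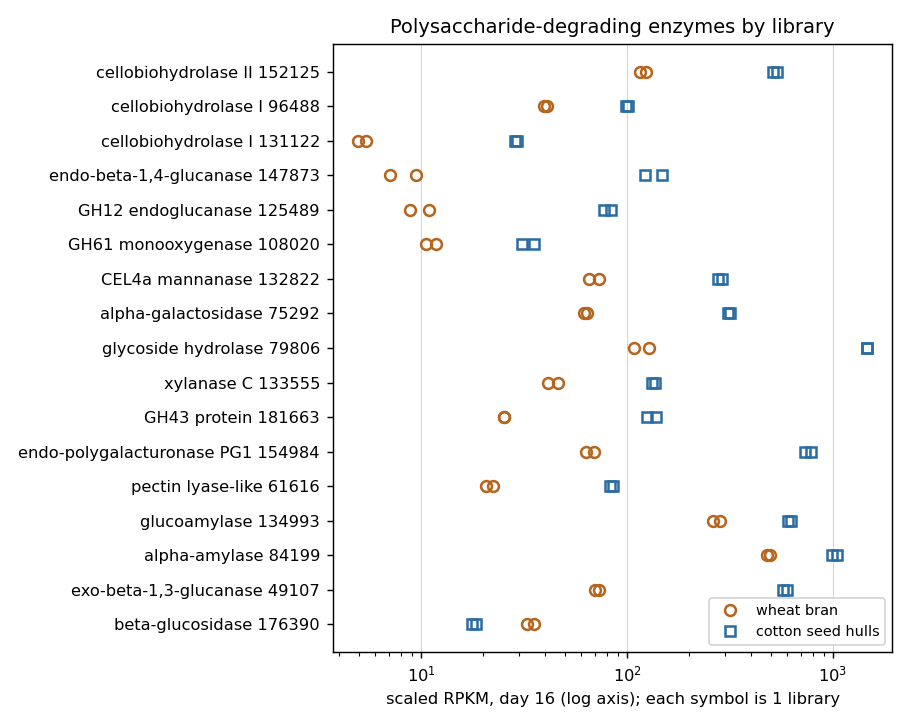
Scaled RPKM (log axis) of named polysaccharide-degrading and wall enzymes at day 16, labelled by the number in their gene ID, with brown circles for wheat bran libraries and blue squares for cotton seed hull libraries. The squares lie to the right of the circles for all genes drawn except the beta-glucosidase DICSQDRAFT_176390, where the order is turned.

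Plant polysaccharide enzymes were also grouped by the annotation's KEGG matches, after the day 16 values were known. Pectin-related matches were lower in 10 of 12 genes with a median of −1.50, xylan-related in 10 of 14 with a median of −1.01, and cellulose-related in 17 of 35 with a median of −0.54. Genes higher on wheat bran numbered 0, 1 and 3. Of 13 galactose- and mannose-related matches 9 were lower and none higher, with a median of −0.70. The 13 starch matches held 6 lower and 1 higher, yet their median was 0.20. On total reads alone the lower and higher counts were 8 and 0 for pectin, 7 and 2 for xylan, 12 and 9 for cellulose, 5 and 2 for galactose and mannose, and 5 and 7 for starch. Some genes stand in both groupings, so the counts are not independent.

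Enzymes acting on the fungal wall were also lower on wheat bran: 13 of 21 chitin and wall genes were lower and none higher, with a median of −0.85, and 11 and 1 on total reads alone. Groupings by KEGG match were more mixed, with 8 lower and 4 higher of 22 chitin matches and 9 lower and 3 higher of 20 beta-1,3-glucan matches. On total reads alone these held 5 lower and 7 higher, and 4 lower and 9 higher. The summed level of the chitin and wall list, not of the KEGG groupings, was 2990 and 2932 scaled RPKM on wheat bran and 5788 and 5705 on cotton seed hulls. That list holds wall-building and wall-cleaving enzymes, and both kinds were among the lower genes. Chitin synthase DICSQDRAFT_165065 had 669 and 652 on wheat bran and 1290 and 1225 on cotton seed hulls (−0.93 ± 0.11), and the 1,3-beta-glucan synthase DICSQDRAFT_49951 had 245 and 242 against 436 and 441 (−0.85 ± 0.13). The exo-beta-1,3-glucanase DICSQDRAFT_49107, which trims beta-1,3-glucan, had 72.8 and 69.9 against 601 and 572 (−3.04 ± 0.11, adjusted p = 1.66e-11). The family 16 gene DICSQDRAFT_69888 had 497 and 498 against 1002 and 1026 (−1.03 ± 0.09).

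Further glycoside hydrolases were lower more often than higher with the TMM scaling. Of 47 with no family named, 23 were lower and 6 higher, with a median of −0.48, but 13 were lower and 15 higher with library size alone. DICSQDRAFT_55312, matched to chitinase, had 293 and 291 on wheat bran and 818 and 857 on cotton seed hulls (−1.52 ± 0.21). A family 47 gene, DICSQDRAFT_110961, matched to the alpha-mannosidase that trims N-glycans, had 15.6 and 14.6 against 196 and 192 (−3.68 ± 0.14, adjusted p = 2.25e-11). It was among the 12 largest differences towards cotton seed hulls with a description.

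**Figure D3:**
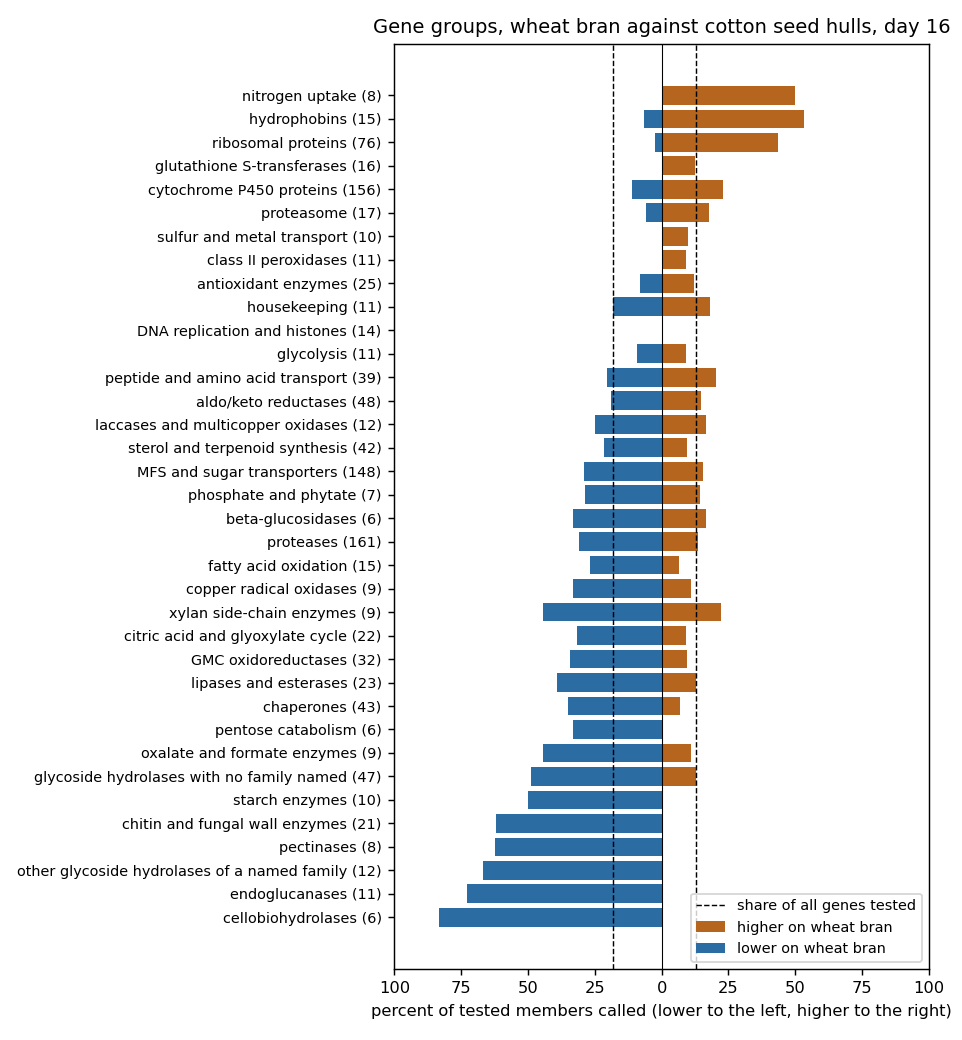
Gene lists with at least 6 members tested (36 lists), with the number tested in parentheses, showing the percent of members called lower (blue, to the left) and higher (brown, to the right) on wheat bran at day 16. Dashed lines mark the 18.3% lower and 13.0% higher of all genes. Cellobiohydrolases, endoglucanases, pectinases and wall enzymes hold lower calls and no higher ones, and hydrophobins and nitrogen uptake genes extend mostly to the right.

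Lignin-modifying peroxidases gave few calls. Of 11 class II peroxidases, which oxidise lignin directly or through manganese, 1 was higher and none lower. On total reads alone 5 were higher and none lower, against 5848 and 625 of all 10584 genes. Manganese peroxidase 2 (DICSQDRAFT_169843) had 5.51 and 5.03 on wheat bran and 1.80 and 3.75 on cotton seed hulls (0.90 ± 0.29, adjusted p = 0.0249). The call rested on cotton seed hull replicate 1, without which the difference was 0.49 (adjusted p = 0.284), and it was also lost without wheat bran replicate 1 (adjusted p = 0.109) or 2 (adjusted p = 0.0624). The most abundant member, DICSQDRAFT_141471, did not pass, with 124 and 121 against 93.4 and 93.1 (0.39 ± 0.20, adjusted p = 0.173). The dye-decolourising peroxidase DICSQDRAFT_150405 had 359 and 380 against 307 and 332 (0.21 ± 0.16, adjusted p = 0.365).

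Laccases and multicopper oxidases, which oxidise phenols with oxygen, were split, with 2 of 12 higher (16.7%, against 13.0% of all genes) and 3 lower (25%, against 18.3%). On total reads alone 3 were higher and 1 lower. The laccase DICSQDRAFT_148140 was higher at 18.2 and 19.7 on wheat bran against 10.8 and 10.6 (0.83 ± 0.15). The laccase DICSQDRAFT_67925 had 13.6 and 14.9 against 6.20 and 7.71 (1.03 ± 0.26, adjusted p = 0.00956), lost without cotton seed hull replicate 1 (adjusted p = 0.0859) or wheat bran replicate 2 (adjusted p = 0.0554). The multicopper oxidase DICSQDRAFT_180464 had 8.07 and 9.36 against 28.4 and 28.0 (−1.69 ± 0.13). The group thus held calls in both directions at modest levels.

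Enzymes that make hydrogen peroxide for the peroxidases were lower at their most abundant members. Glyoxal oxidase DICSQDRAFT_167685, a copper radical enzyme, had 987 and 957 on wheat bran and 1870 and 1695 on cotton seed hulls (−0.87 ± 0.17), and this call did not hold on total reads alone (−0.40, adjusted p = 0.0526). Alcohol oxidase DICSQDRAFT_181599, which oxidises methanol and releases peroxide, had 10154 and 10247 against 16570 and 16655 (−0.70 ± 0.23, adjusted p = 0.0349). It was lost when any 1 day 16 library was left out (adjusted p from 0.107 to 0.132) and with library size alone (−0.23, adjusted p = 0.455). Of 32 GMC oxidoreductases, the flavoenzyme family that includes it, 11 were lower and 3 higher, against 7 and 12 with library size alone. DICSQDRAFT_138769 had the largest fall in that family, at 24.2 and 25.1 against 140 and 147 (−2.54 ± 0.16).

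Of 9 oxalate and formate genes 4 were lower and 1 higher, and 3 and 2 on total reads alone. Oxalate decarboxylase DICSQDRAFT_163336, which turns oxalate into formate, had 79.5 and 79.6 on wheat bran and 254 and 234 on cotton seed hulls (−1.62 ± 0.46, adjusted p = 0.0283), a call lost when any 1 of the day 16 libraries was left out (adjusted p from 0.081 to 0.124). The formate dehydrogenase DICSQDRAFT_88541, which oxidises formate to carbon dioxide, had 123 and 118 against 354 and 351 (−1.55 ± 0.33). Its much more abundant paralogue DICSQDRAFT_51840 had 2469 and 2422 against 3255 and 3183 (−0.40 ± 0.11, adjusted p = 0.0108), and its sign turned with library size alone (0.08). It was also lost without any 1 of the day 16 libraries (adjusted p from 0.0561 to 0.0826). Glyoxylate dehydrogenase DICSQDRAFT_183166, which forms oxalate from glyoxylate, was higher on wheat bran at 556 and 627 against 348 and 376 (0.71 ± 0.19, adjusted p = 0.0137). It was no longer called without cotton seed hull replicate 1, cotton seed hull replicate 2 or wheat bran replicate 2 (adjusted p from 0.0515 to 0.0945).

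Proteases differed in both directions. Of 161 tested, 50 were lower on wheat bran and 22 higher, with a median of −0.11, whereas library size alone gave 17 lower and 87 higher. The acid protease DICSQDRAFT_144360 had 1118 and 1087 on wheat bran and 4079 and 3978 on cotton seed hulls (−1.87 ± 0.28). The S53 protease DICSQDRAFT_157239, of a family that includes tripeptidyl peptidases, had 29.9 and 30.2 against 226 and 215 (−2.87 ± 0.23). A more abundant S53 protease, DICSQDRAFT_182861, had 2196 and 2166 against 4219 and 4182 (−0.95 ± 0.23), lost with library size alone (−0.47, adjusted p = 0.0934). In all 3 both cotton seed hull libraries were above both wheat bran libraries, a separation shared by every called gene.

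Genes described as acid or aspartic peptidases differed in both directions. DICSQDRAFT_89467 had 44.7 and 40.5 on wheat bran and 377 and 337 on cotton seed hulls (−3.07 ± 0.45), and DICSQDRAFT_180308 had 13.1 and 14.3 against 123 and 101 (−3.03 ± 0.43). DICSQDRAFT_150052, with the same KEGG match as DICSQDRAFT_89467, had 28.2 and 26.9 against 4.58 and 3.28, a difference of 2.81 ± 0.18 (adjusted p = 5.90e-09). The metalloprotease DICSQDRAFT_156505 was also higher, at 42.6 and 54.2 against 7.13 and 6.84 (2.79 ± 0.34).

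The nitrogen uptake list holds 4 transporters and 4 other genes, the ureases, a urease accessory protein and a nitrite reductase. Of these 8 genes 4 were higher on wheat bran and none lower, with a median of 0.37. On total reads alone all 8 were higher, where 5848 of all 10584 genes were, and their median of 0.84 stood against 0.48 for all genes. The higher genes were both ammonium transporters, the urea transporter and 1 urease. The ammonium transporter DICSQDRAFT_162887 had 13.3 and 13.8 on wheat bran and 4.04 and 3.73 on cotton seed hulls (1.81 ± 0.16, adjusted p = 2.98e-07), and DICSQDRAFT_112666 had 80.8 and 82.3 against 39.2 and 46.2 (0.93 ± 0.09). Peptide and amino acid transporters showed 8 calls in each direction among 39 genes, but 24 higher and 4 lower on total reads alone and 12 and 6 with upper quartile scaling. The OPT oligopeptide transporter DICSQDRAFT_94742, 1 of the 3 most abundant of the list, had 2886 and 2922 on wheat bran against 8856 and 9351 on cotton seed hulls (−1.65 ± 0.15). DICSQDRAFT_180015 had 28.9 and 27.8 against 103 and 99.0 (−1.84 ± 0.12). The proton-dependent type DICSQDRAFT_82049 had 2452 and 2483 against 1974 and 1927 (0.34 ± 0.12, adjusted p = 0.0364), lost when any single day 16 library was left out (adjusted p from 0.125 to 0.167).

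Of 7 phosphate and phytate genes 1 was higher on wheat bran and 2 lower. On total reads alone 4 were higher and 1 lower, against 5848 and 625 of all 10584 genes. The phosphate transporter DICSQDRAFT_152927 had 97.4 and 102 on wheat bran and 203 and 195 on cotton seed hulls (−0.998 ± 0.12). Phytase DICSQDRAFT_108628, which frees phosphate from phytate, had 109 and 104 against 137 and 150 (−0.43 ± 0.09, adjusted p = 0.00109), and its sign turned with library size alone (0.04). The acid phosphatase DICSQDRAFT_132095 was higher on wheat bran at 170 and 170 against 132 and 129 (0.38 ± 0.07). Among 10 sulfur and metal transporters the sulfate permease DICSQDRAFT_146123 was the only one called with the TMM scaling. It had 4.19 and 5.86 against 0.0776 and 0.502 (4.05 ± 0.37, adjusted p = 5.35e-07). On total reads alone 7 of the 10 were higher, in a scaling where most called genes of the whole set were higher.

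Of 148 MFS and sugar transporters, 43 were lower on wheat bran and 23 higher, but 11 and 67 with library size alone. The monosaccharide transporter DICSQDRAFT_153259 had 508 and 521 on wheat bran and 2470 and 2661 on cotton seed hulls (−2.32 ± 0.12, adjusted p = 3.42e-10). The general substrate transporter DICSQDRAFT_110689 was higher at 1747 and 1802 against 1110 and 1093 (0.69 ± 0.14), and DICSQDRAFT_145971 at a low level had 7.70 and 8.32 against 2.11 and 1.74 (2.05 ± 0.26). DICSQDRAFT_94114 was not called, at 1401 and 1410 against 1304 and 1241 (0.14 ± 0.17, adjusted p = 0.577).

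Ribosomal protein genes were higher on wheat bran by small amounts: 33 of 76 were higher and 2 lower, with a median of 0.22 and none at 2-fold. With upper quartile scaling 50 were higher and 1 lower, and on total reads alone 71 and 0, where the median of 0.70 stood against 0.48 for all genes. When a day 16 library was left out the higher count ranged from 15 to 22. The L17/L23 gene DICSQDRAFT_102781 had 266 and 274 on wheat bran and 195 and 189 on cotton seed hulls (0.49 ± 0.07). Chaperones went lower in 15 of 43 genes and higher in 3, and 2 and 18 with library size alone. Hsp70 DICSQDRAFT_181491, matched to the form that folds proteins in the endoplasmic reticulum, had 119 and 116 against 418 and 384 (−1.77 ± 0.10). HSS1 (DICSQDRAFT_97767) had 246 and 210 against 470 and 416 (−0.96 ± 0.23, adjusted p = 0.00854), lost with library size alone, without cotton seed hull replicate 1 (adjusted p = 0.0520) and without wheat bran replicate 2 (adjusted p = 0.0669). By contrast the small heat shock protein DICSQDRAFT_109568 was 6504 and 6427 on wheat bran and 1588 and 1564 on cotton seed hulls (2.04 ± 0.26).

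Central metabolism and common reference genes showed small differences. Of 22 citric acid and glyoxylate cycle genes 2 were higher (9.1%, against 13.0% of all genes) and 7 lower (31.8%, against 18.3%). On total reads alone 13 were higher and none lower. Of 11 glycolysis genes 1 was higher and 1 lower, but 9 and 0 on total reads alone. Of 6 pentose catabolism genes 2 were lower and none higher, but none and 4 on total reads alone, among them the xylitol dehydrogenase DICSQDRAFT_86636 at 156 and 153 on wheat bran against 235 and 220 (−0.56 ± 0.10), which was −0.09 with library size alone. Isocitrate lyase DICSQDRAFT_112226 of the glyoxylate cycle had 53.8 and 61.7 against 36.5 and 37.4 (0.64 ± 0.16, adjusted p = 0.00778), lost without cotton seed hull replicate 1 (adjusted p = 0.0507) or wheat bran replicate 2 (adjusted p = 0.0661). Actin DICSQDRAFT_141804 had 1829 and 1846 against 1609 and 1593 (0.20 ± 0.09, adjusted p = 0.0995), and glyceraldehyde-3-phosphate dehydrogenase DICSQDRAFT_183206 had 1070 and 1043 against 966 and 888 (0.19 ± 0.11, adjusted p = 0.201). Neither passed the test. The tubulin DICSQDRAFT_154075 was lower at 606 and 641 against 841 and 826 (−0.42 ± 0.09), a sign that turned with library size alone (0.05). Polyubiquitin DICSQDRAFT_107452 was higher at 2025 and 2093 against 1634 and 1512 (0.39 ± 0.11, adjusted p = 0.0102), lost without cotton seed hull replicate 2 (adjusted p = 0.112) or wheat bran replicate 2 (adjusted p = 0.0783).

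Hydrophobins had the highest median of the 40 lists. These small secreted proteins coat aerial hyphae and spores and help hyphae attach to surfaces. Of 16 genes 15 were tested, 8 were higher and 1 lower, with a median of 1.77, and with library size alone 11 were higher and none lower. When a day 16 library was left out, 6 or 7 were higher. Their summed level was 8504 and 8217 scaled RPKM on wheat bran and 3748 and 3811 on cotton seed hulls, against 330 and 272 on spruce and 504 and 432 on aspen at the same day. The counts use uniquely assigned reads, so reads shared by near-identical copies would be missing from both groups.

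The largest hydrophobin difference was in DICSQDRAFT_55052, with 1282 and 1241 scaled RPKM on wheat bran and 17.6 and 15.3 on cotton seed hulls (6.26 ± 0.52, adjusted p = 2.14e-05). DICSQDRAFT_62768 had 109 and 93.7 against 4.15 and 0.959 (5.32 ± 0.32, adjusted p = 3.14e-09). DICSQDRAFT_54466, the most abundant member on wheat bran, had 2478 and 2299 against 96.9 and 71.1 (4.83 ± 0.22, adjusted p = 2.08e-08). In all 3 the wheat bran libraries lay far above the cotton seed hull libraries, though every called gene had groups that did not overlap. DICSQDRAFT_167756 had 1121 and 1178 against 125 and 139 (3.12 ± 0.28), and DICSQDRAFT_101659 had 615 and 606 against 119 and 99.9 (2.48 ± 0.20). Hydrophobin-315 (DICSQDRAFT_62584) was the exception, at 1981 and 1906 on wheat bran and 3078 and 3188 on cotton seed hulls (−0.69 ± 0.10), a call lost with library size alone (−0.22, adjusted p = 0.0691). A further pair of members was chosen after its values were seen. DICSQDRAFT_184249 had 199 and 215 against 36.9 and 42.7 (2.38 ± 0.20), and DICSQDRAFT_54693, at 669 and 635 against 242 and 221, did not pass (1.49 ± 0.51, adjusted p = 0.0566).

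At day 9 the same family did not show this pattern. Its median was −0.31, with 1 gene higher and 4 lower on wheat bran, and its summed level was 1950 and 2200 on wheat bran and 5687 and 5644 on cotton seed hulls. DICSQDRAFT_54466 then averaged 190 ± 45.1 scaled RPKM (SD, n = 2 libraries) on wheat bran against 622 ± 68.6 on cotton seed hulls, and DICSQDRAFT_167756 averaged 376 and 1398. The difference between days was called for 9 of 15 hydrophobins, all towards wheat bran at day 16, against 4.29% of all genes in that direction. It reached 8.68 ± 0.44 in DICSQDRAFT_62768 (adjusted p = 9.25e-09), 6.61 ± 0.65 in DICSQDRAFT_55052 (adjusted p = 0.000345) and 6.54 ± 0.29 in DICSQDRAFT_54466 (adjusted p = 2.64e-07).

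**Figure D4:**
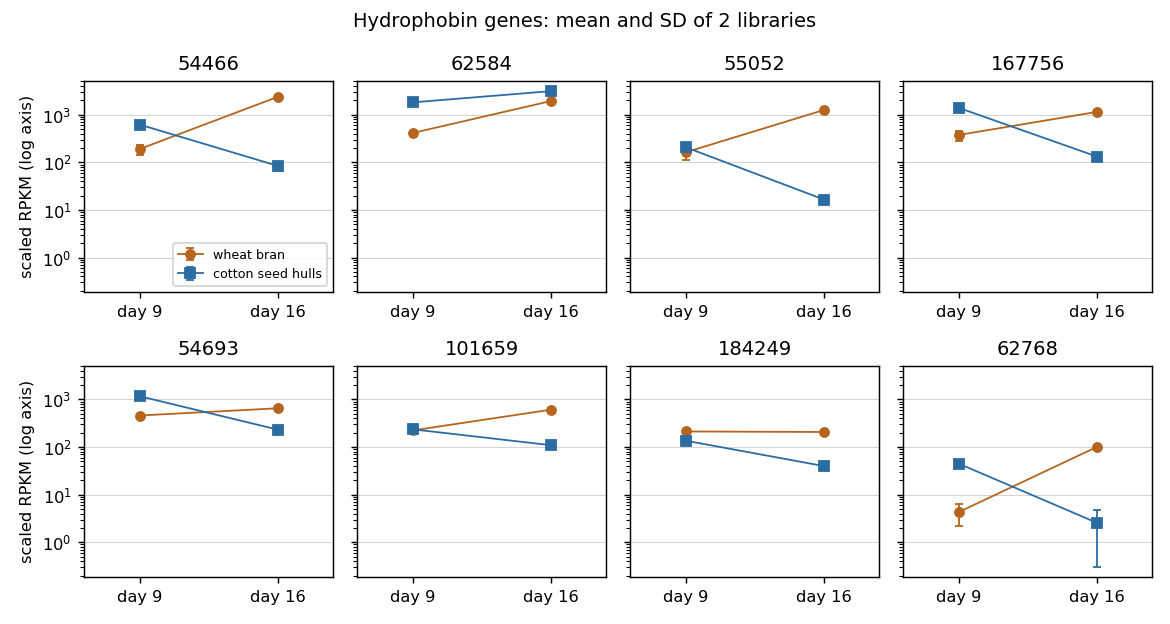
Mean scaled RPKM (log axis) of 8 hydrophobins at day 9 and day 16, 1 panel per gene, in brown for wheat bran and blue for cotton seed hulls, with error bars of 1 SD over 2 libraries. Between day 9 and day 16 DICSQDRAFT_54466 and DICSQDRAFT_62768 change places between the substrates, from higher on cotton seed hulls to higher on wheat bran.

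Cytochrome P450 proteins, heme enzymes that oxidise aromatic and other small compounds, had more higher than lower calls on wheat bran. Of 156 genes 36 were higher and 17 lower, with a median of 0.14, and 19 to 24 were higher when a day 16 library was left out. On total reads alone 85 were higher and 7 lower, against 5848 and 625 of all 10584 genes. DICSQDRAFT_149852 had 68.6 and 71.7 on wheat bran and 12.4 and 12.6 on cotton seed hulls (2.49 ± 0.30), and DICSQDRAFT_151582, described as upregulated by high nitrogen, had 16.4 and 18.1 against 2.90 and 3.64 (2.39 ± 0.24). The most abundant member, DICSQDRAFT_154131, had 1145 and 1169 against 673 and 649 (0.81 ± 0.12). In the other direction DICSQDRAFT_94193 had 108 and 94.7 against 466 and 432 (−2.15 ± 0.09). Summed over the list, levels were 4511 and 4492 on wheat bran and 4545 and 4448 on cotton seed hulls, so the totals overlapped.

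Other oxidative and secondary metabolism genes added single differences, some large and some small. A glutathione S-transferase, DICSQDRAFT_137430, from a family that conjugates reactive compounds to glutathione, had 9.83 and 8.22 on wheat bran and 2.25 and 2.08 on cotton seed hulls (2.05 ± 0.39). Of 16 such genes 2 were higher (12.5%, near the 13.0% of all genes) and none lower. On total reads alone 4 were higher and none lower, against 5848 and 625 of all 10584 genes. The aldo/keto reductase DICSQDRAFT_94028 had 53.6 and 54.9 against 19.3 and 19.0 (1.50 ± 0.23). Of 48 aldo/keto reductases 7 were higher (14.6%) and 9 lower (18.75%), near the 13.0% and 18.3% of all genes. On total reads alone 22 were higher and 1 lower. The terpenoid synthase DICSQDRAFT_80370 was lower at 107 and 112 against 324 and 314 (−1.54 ± 0.09). Squalene synthase DICSQDRAFT_125356, at the entry to sterol synthesis, had 101 and 99.8 against 76.5 and 79.4 (0.36 ± 0.08). Of 42 sterol and terpenoid synthesis genes 4 were higher (9.5%) and 9 lower (21.4%), but 17 and 2 on total reads alone. The carboxylesterase DICSQDRAFT_157086 had 44.5 and 42.1 against 149 and 147 (−1.77 ± 0.12).

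Among the described genes named, the ratio was widest in the ricin B-like lectin DICSQDRAFT_172726, a carbohydrate-binding protein by its fold. It had 105 and 126 scaled RPKM on wheat bran and 0.358 and 0.330 on cotton seed hulls, or 971 reads against 2. The ratio of reads, each divided by library size times TMM factor, was 337. Its 95% counting interval from 93.2 to 2790 covers counting error only. At day 9 it averaged 1095 on wheat bran against 0.691 on cotton seed hulls, so the same order held at both times.

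An ion pump and a hydrolase were also among the 12 largest described differences towards wheat bran. The sodium-potassium ATPase DICSQDRAFT_47382 had 22.8 and 25.4 on wheat bran and 1.25 and 2.46 on cotton seed hulls (3.68 ± 0.25), and the alpha/beta-hydrolase DICSQDRAFT_164545 had 54.8 and 59.2 against 8.46 and 7.82 (2.81 ± 0.23). Towards cotton seed hulls, the thiamine synthesis gene DICSQDRAFT_134894 had 3.01 and 5.19 against 51.2 and 40.8 (−3.48 ± 0.23). The PLP-dependent transferase DICSQDRAFT_108482 had 34.8 and 33.4 against 263 and 284 (−3.003 ± 0.12). Some large differences fell in genes without an informative description. DICSQDRAFT_171245 had 13.1 and 12.5 against 1.41 and 0.653 (3.63 ± 0.25), and DICSQDRAFT_64881 had 94 reads against 1. With library size times TMM factor as the divisor, that ratio was 65.3, with a counting interval from 11.4 to 2608. Lower ones were DICSQDRAFT_57684, with 2.76 and 3.46 against 88.0 and 73.8 (−4.69 ± 0.21), and DICSQDRAFT_77373, with 4.30 and 5.16 against 68.5 and 57.6 (−3.73 ± 0.25).

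The most abundant transcripts were mostly undescribed. The 6 locus tags named above were each among the 10 highest genes of at least one of the groups. Of these only DICSQDRAFT_73518 carries a description, a partial checkpoint-like protein. That gene had 13173 and 12896 scaled RPKM on wheat bran and 46916 and 19133 on cotton seed hulls (−1.34 ± 0.42, adjusted p = 0.0379), so cotton seed hull replicate 1 stood apart. Without that library the difference was −0.55 (adjusted p = 0.259) for DICSQDRAFT_73518, −0.44 (adjusted p = 0.332) for DICSQDRAFT_73523 and −0.65 (adjusted p = 0.217) for DICSQDRAFT_73601, whose differences with all libraries were −1.30 ± 0.42 and −1.43 ± 0.43. The calls of these 3 genes were also lost without either wheat bran library (adjusted p from 0.123 to 0.168). DICSQDRAFT_73526 did not pass with all libraries (−0.90 ± 0.36, adjusted p = 0.096). DICSQDRAFT_73579 had 5844 and 5836 against 20238 and 16124 (−1.64 ± 0.18). DICSQDRAFT_73520 had 7058 and 6071 against 15698 and 11537 (−1.05 ± 0.16), a call lost in a fit of the 4 compared libraries alone (adjusted p = 0.0839). The undescribed DICSQDRAFT_151452, not among these 6, had 8725 and 8218 against 17920 and 18857 (−1.12 ± 0.12).

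Across all genes the day 16 comparison shared much with day 9. At day 9, 3574 genes were called (33.8%), 15.2% of genes higher on wheat bran and 18.5% lower. On both days 688 genes were higher and 1130 lower, while 135 were called in opposite directions, 74 of them higher at day 16 and lower at day 9. The day 9 and day 16 comparisons share no library. The difference between the days was called for 994 genes (9.39%), 454 towards wheat bran at day 16 and 540 (5.1%) towards cotton seed hulls. It was called for 538 to 647 genes when any of the 8 wheat bran or cotton seed hull libraries was left out.

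Some differences were present at day 16 and not called at day 9, and others widened or narrowed. The pectin lyase-like DICSQDRAFT_61616 differed by −0.07 at day 9 and −1.97 at day 16, a difference between days of −1.90 ± 0.18 (adjusted p = 4.85e-06), and the multicopper oxidase DICSQDRAFT_180464 by −0.10 and −1.69. For the alpha-galactosidase DICSQDRAFT_75292 the difference widened from −1.14 to −2.32. PG1 (DICSQDRAFT_154984) narrowed from −5.51 to −3.51, with a day 9 mean of 9.51 on wheat bran against 434 on cotton seed hulls. The glyoxal oxidase DICSQDRAFT_167685 narrowed from −1.87 to −0.87.

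Several genes had opposite signs on the days with the TMM scaling. The thioredoxin-like gene DICSQDRAFT_148760, a KEGG match to glutathione S-transferase, had 208 and 178 on wheat bran and 107 and 103 on cotton seed hulls at day 16 (0.88 ± 0.14), and at day 9 averaged 40.5 against 221 (−2.44). The phosphate transporter DICSQDRAFT_152927 went from 0.84 at day 9 to −0.998 at day 16, and the formate dehydrogenase DICSQDRAFT_51840 from 0.52 to −0.40, where the day 16 sign turned on total reads alone (0.08). The epimerase-domain gene DICSQDRAFT_155778 went from 0.74 to −1.48, and the P450 gene DICSQDRAFT_105994 from 1.44 to −0.75, its day 16 call being lost with library size alone (−0.28, adjusted p = 0.106). In each the difference between days passed the test. The calcium ATPase-like gene DICSQDRAFT_156959 kept its direction but narrowed from 4.27 to 1.30, and the dye-decolourising peroxidase DICSQDRAFT_150405 from 2.60, with 914 against 150 at day 9, to an uncalled 0.21. The manganese peroxidase DICSQDRAFT_50355 was lower on wheat bran at day 9 (−1.79, 41.3 against 143) and had 10.7 and 14.0 against 4.83 and 6.40 at day 16 (1.13 ± 0.58, adjusted p = 0.183).

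**Figure D5:**
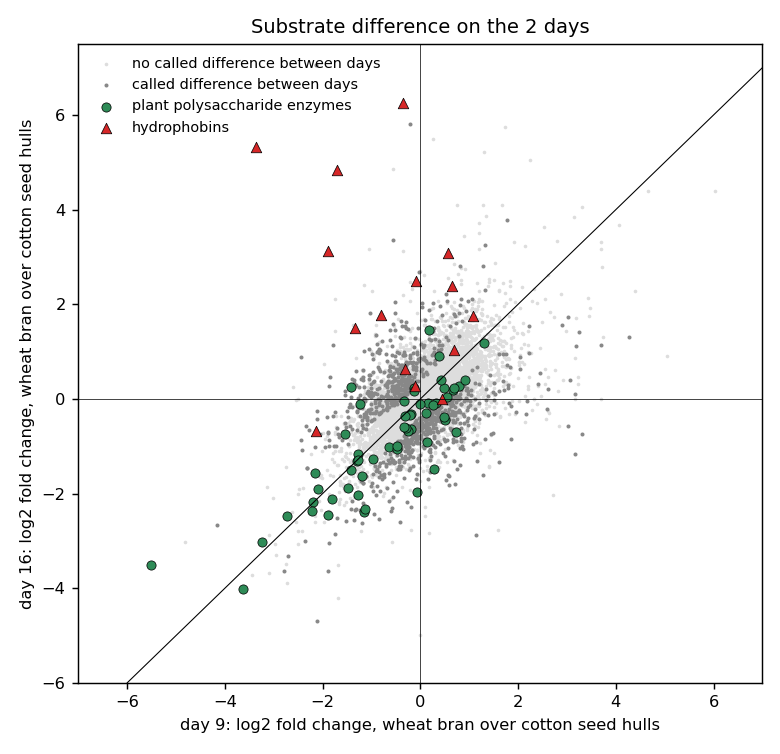
Log2 difference of wheat bran over cotton seed hulls at day 9 (x axis) against day 16 (y axis) for the genes tested, with 2 genes outside the axes. Dark grey points are genes whose difference between the days was called, light grey points those without a call, green circles plant polysaccharide enzymes and red triangles hydrophobins. Many hydrophobins lie far above the diagonal, which marks an equal difference on both days.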

How the data were processed

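The authors deposited, for each of 16 libraries, a table of unique read counts and RPKM per gene, and per the file headers the count column holds uniquely assigned reads. RPKM in the deposited tables equals those counts scaled to gene length and to the library's total count. No aligner, counter, genome build or strandedness is given in the sources used here, so reads from overlapping or antisense genes may not be told apart. Genes missing from a file were given 0 reads. Depth averaged 8633849 reads on wheat bran against 8315964 on cotton seed hulls at day 16, and intervals cover counting error only.

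Counts were tested with edgeR 4.0.16 in R 4.3.3: TMM scaling, filterByExpr (minimum count 10), robust quasi-likelihood fit of 8 group means over all 16 libraries, Benjamini-Hochberg adjustment at 0.05 over 10584 genes. Contrasts were wheat bran minus cotton seed hulls at day 16, at day 9, and their difference. The step was also run on simulated counts with a common spread and few changed genes. That run cannot bear on the choice of scaling, on which the split of the calls depended. Scaled RPKM is the deposited RPKM divided by the TMM factor. Alternatives were library size alone, DESeq2 1.42.0 and its size factors, upper quartile scaling, other count minimums, limma 3.58.1 on log2(RPKM + 1) and log2(RPKM + 0.1), only the libraries compared, a replicate block and leaving out each library.

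Genes were named by a rule: called, not overlapping in RPKM, averaging 10 RPKM or more in the higher group, taking the 12 largest described and 2 largest undescribed changes per direction. The 3 most abundant members of each list and its largest call in each direction were added, with the 10 most abundant genes per group, the 6 largest differences between days in each direction and members of a run of neighbours. This gave 196 genes, not all of which are named in the text, a choice made with their values known. The comparison, the 40 lists (by the deposited descriptions) and the 7 KEGG lists were chosen or refined with earlier results of these data known.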

Additional observations from a re-analysis of the deposited data

Results flagged for a closer look

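The effect of wheat bran over cotton seed hulls differed between day 16 and day 9, by edgeR's quasi-likelihood test of the difference itself, for 994 genes. Values below are the log2 effect at day 16 minus that at day 9, for genes named in the text that passed. With 2 libraries per group, no library could be tested as an outlier.

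Among hydrophobins it was 8.68 for DICSQDRAFT_62768, 6.61 for DICSQDRAFT_55052, 6.54 for DICSQDRAFT_54466 and 5.02 for DICSQDRAFT_167756. Smaller values were 2.84 for DICSQDRAFT_54693, 2.56 for DICSQDRAFT_101659, 1.73 for DICSQDRAFT_184249 and 1.45 for DICSQDRAFT_62584.

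In the polysaccharide and wall enzymes named in the text that passed, the shift was mostly towards cotton seed hulls. It was −1.90 for the pectin lyase-like DICSQDRAFT_61616, −1.73 for the alpha-galactosidase match DICSQDRAFT_79806, −1.24 for the endoglucanase DICSQDRAFT_65561 and −1.18 for the alpha-galactosidase DICSQDRAFT_75292. The exo-beta-1,3-glucanase DICSQDRAFT_49107 had −1.17, the beta-mannosidase match DICSQDRAFT_46134 −1.10, the mannanase DICSQDRAFT_132822 −0.76, the alpha-amylase DICSQDRAFT_84199 −0.58 and chitin synthase DICSQDRAFT_165065 −0.53. PG1 (DICSQDRAFT_154984) had 2.00, the opposite sign. Counting whole lists, calls towards cotton seed hulls were 3 of 11 endoglucanases, 3 of 8 pectinases and 7 of 21 wall genes, against 5.1% of all genes. Calls towards wheat bran in these lists were 0, 1 and 2, against 4.29% of all genes. No cellobiohydrolase or xylan side-chain gene had a called difference between days.

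In oxidative genes the shift was 2.92 for the manganese peroxidase DICSQDRAFT_50355, 1.11 for glyoxylate dehydrogenase DICSQDRAFT_183166 and 0.99 for glyoxal oxidase DICSQDRAFT_167685. It was −2.39 for the dye-decolourising peroxidase DICSQDRAFT_150405, −1.70 for the GMC oxidoreductase DICSQDRAFT_138769 and −1.59 for the multicopper oxidase DICSQDRAFT_180464. Formate dehydrogenases DICSQDRAFT_88541 and DICSQDRAFT_51840 had −1.74 and −0.92, the P450 gene DICSQDRAFT_105994 −2.19 and the aryl-alcohol oxidase-like DICSQDRAFT_182736 −1.41.

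Transporters gave 2.58 for DICSQDRAFT_145971, 1.01 for the ammonium transporter DICSQDRAFT_162887, −0.83 for the nucleoside transporter DICSQDRAFT_110628, −0.91 for the monosaccharide transporter DICSQDRAFT_153259, −0.95 for the oligopeptide transporter DICSQDRAFT_180015 and −1.84 for the phosphate transporter DICSQDRAFT_152927. The aspartic peptidase DICSQDRAFT_150052 had 2.00, the alpha/beta-hydrolase DICSQDRAFT_164545 1.53, the thioredoxin-like DICSQDRAFT_148760 3.32 and the calcium ATPase-like DICSQDRAFT_156959 −2.97. Hsp70 DICSQDRAFT_181491 had −0.60, polyubiquitin DICSQDRAFT_107452 −0.56, the PLP-dependent transferase DICSQDRAFT_108482 −0.64, the terpenoid synthase DICSQDRAFT_80370 −0.69 and the epimerase-domain gene DICSQDRAFT_155778 −2.22.

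Genes without an informative description gave 6.02 for DICSQDRAFT_64881, −1.92 for DICSQDRAFT_73520, −2.23 for DICSQDRAFT_73579 and −2.58 for DICSQDRAFT_57684. For DICSQDRAFT_64881 the cotton seed hull value at day 16 rests on 1 read.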

How the results depend on the processing

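Of the 110 called genes named, 85 kept their direction and call under every alternative run, 23 lost the call under at least 1, and 3 changed sign. The sign changes came with library size alone, limma on log2(RPKM + 0.1) and limma on log2(RPKM + 1), which all leave the overall offset of 0.48 in place. In that order, phytase DICSQDRAFT_108628 had 0.0372, 0.0397 and 0.0393, tubulin DICSQDRAFT_154075 had 0.0532, 0.0525 and 0.0524, and formate dehydrogenase DICSQDRAFT_51840 had 0.0751, 0.0751 and 0.0751.

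In the same 3 settings the day 16 calls numbered 6473, 6624 and 6541, with 5848, 6004 and 5923 higher and 625, 620 and 618 lower. At least 2-fold calls were 1605 with library size alone and 1643 with limma on log2(RPKM + 0.1). For the difference between days they gave 1628, 1610 and 1535 calls, of which 1358, 1328 and 1263 were towards wheat bran and 270, 282 and 272 towards cotton seed hulls. A fit of only the libraries compared gave 2082 higher at day 16, and 2274 differences between days, 1075 towards wheat bran and 1199 towards cotton seed hulls. Leaving out each library gave 2108 to 3134 day 16 calls, 768 to 1301 higher and 1310 to 1858 lower, with 697 to 837 at least 2-fold. For the difference between days it gave 538 to 647 calls, 263 to 321 towards wheat bran and 275 to 351 towards cotton seed hulls. With a library left out, the fit still used all other libraries to estimate the spread, and the lone sample of a group was assumed to vary like the others. DESeq2, its size factors, upper quartile scaling and other count minimums stayed within 1.5 times of each count. With the replicate number as a block, day 16 calls were 1403 higher and 1979 lower, and DICSQDRAFT_73518 (adjusted p = 0.0569) and DICSQDRAFT_73523 (adjusted p = 0.0674) were the only named genes whose day 16 call was lost. Same-numbered wheat bran and cotton seed hull libraries of day 16 correlated at 0.018 in their deviations from the group means. With 2 libraries per group this shows no strong shared effect, but it cannot show whether same-numbered samples were handled together. For the aspen and spruce libraries of day 9, which are in the same fit, the value was 0.335. The cause of the changes between settings was not tested.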

Other observations

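With the TMM scaling, the direction of the day 16 difference followed the level of the gene. Genes were ranked by mean level over the libraries and cut into 4 groups of 2646. In the group of lowest level the median log2 difference was 0.26, with 278 genes higher on wheat bran and 100 lower. In the highest group it was −0.18, with 326 higher and 1044 lower, and the groups between had 0.09 and −0.03. These signs depend on the scaling, since on total reads alone the median of all genes was 0.48. The medians by level were not computed in that scaling.

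Runs were sought of at least 4 neighbouring genes called in the same direction with at least a 2-fold difference, each within 5000 bases of the next. The only run found held 6 genes lower on wheat bran, a shared direction that the rule required. Of all genes tested, 3.96% were called lower at 2-fold, and how often such a run arises by chance was not tested. It holds an FAD-binding domain gene, DICSQDRAFT_139625, at 510 and 475 scaled RPKM on wheat bran and 1194 and 1092 on cotton seed hulls (−1.22 ± 0.23), and an aldo/keto reductase, DICSQDRAFT_173225, at 268 and 259 against 550 and 570 (−1.09 ± 0.10). The others are a nucleoside transporter (DICSQDRAFT_110628, −1.09 ± 0.13), an ICMT-domain gene (DICSQDRAFT_156946, −1.26 ± 0.18), an aryl-alcohol oxidase-like gene (DICSQDRAFT_182736, −1.20 ± 0.23) and the undescribed DICSQDRAFT_129051 (−1.08 ± 0.25), whose call did not hold on total reads alone (adjusted p = 0.0703). At day 9 only DICSQDRAFT_173225 and DICSQDRAFT_156946 were called, at −0.81 and −0.62.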
